A study of Mus musculus with 26 samples.

Results

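Nrf2, encoded by Nfe2l2, is the transcription factor that switches on antioxidant and detoxification genes when a cell meets oxidants or electrophiles. In resting cells Keap1 holds it for degradation. Modified Keap1 lets it accumulate, pair with a small Maf protein and bind antioxidant response elements (AREs) near its target genes. In liver its targets make and recycle glutathione, reduce quinones, hydrolyse epoxides, break down heme and supply NADPH. The 10 genes followed here are Nfe2l2 itself and 9 genes known as its targets, namely Nqo1, Gclc, Gclm, Srxn1, Txnrd1, Hmox1, Ephx1, Slc7a11 and G6pdx. They were taken by symbol, 10 rows of a count table of 47643 genes. As they were chosen with earlier results of these data known, setting them beside the shares over all genes is description only. All 10 were found, and 9 of them passed the filter on low counts in all 5 comparisons. Slc7a11 passed it only in the knockout comparison, and only through the knockout libraries.

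RNA-seq of mouse liver gave 26 libraries in 10 groups, a treated group and its own control in each of 5 comparisons, with 2 or 3 libraries per group. The first set wild type C57BL/6J mice of 8 weeks given TCPOBOP, an agonist of the nuclear receptor CAR, against mice given corn oil (n = 2 and 2). The sample titles give 36 h after TCPOBOP and the source names give 6 h, so the time is not settled. The second set Fxr-/- Shp-/- mice against wild type mice, both C57BL/6J of 12 weeks (n = 3 and 3). Fxr (Nr1h4) is the bile acid receptor and Shp (Nr0b2) a repressor that it induces. The third set livers 48 h after partial hepatectomy (PHx) against 0 h sham livers from C3H/HeN mice of 8 to 10 weeks, with no genotype stated (n = 3 and 3). The fourth set isolated hepatocytes of wild type C57BL/6J mice of 16 weeks on a 60% high fat diet against hepatocytes of chow-fed mice, all after a 10 h fast (n = 2 and 2). The fifth set cholic acid, a primary bile acid, in the diet against chow in C57BL/6J mice of 10 to 12 weeks after an 8 to 10 h fast (n = 3 and 3). Both of these last groups carry floxed Fxr and Shp alleles (fl/fl Fxr fl/fl Shp), and no Cre is named for them. All groups but the hepatocytes were whole liver, and the mice of the first 3 comparisons fed ad libitum. The labels do not say whether libraries of a group came from separate animals, so p-values measure only the spread between these libraries, which may be technical. The length of the diets and the dose of cholic acid are not given in the sources used here.

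Gene counts ranged from 13949059 to 70367874 per library. Levels are given as CPM, a gene's count relative to the total of its library, scaled within each comparison by the trimmed mean of M values (TMM), and changes as log2 fold changes ± standard error (SE). A gene is called raised or lowered when edgeR's quasi-likelihood test gave an adjusted p under 0.05 over all genes tested. In the knockout, Nr0b2 was at 0.59 to 1.68 CPM against 13.7 to 28.2 in wild type, and Nr1h4 was at 55.7 to 65.0 against 117 to 161; the labels do not give the deleted exons. All 6 hepatocyte markers were present in all 10 groups, and in chow hepatocytes the bile duct markers Epcam and Krt19 were at 0. The library labelled corn oil 1 went against its label: Cyp2b10, the standard CAR target, was at 3786 CPM there, 10.3 in corn oil 2, and 3465 and 3079 in the TCPOBOP libraries. No direction is drawn from the TCPOBOP comparison for that reason. Flox chow 3 stood apart from flox chow 1 and 2. The share of reads that did not align uniquely was 43.2 to 44.1% in wild type against 25.5 to 26.9% in the knockout, and 23.8 to 25.1% in flox chow against 16.6 to 17.6% under cholic acid. Its part in the results of both comparisons was not tested.

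Promoters were searched in RefSeq windows of 300 bases, 250 before to 50 after each annotated start (GRCm38.p6), for the ARE core TGACNNNGC and the AP-1 site TGANTCA on both strands. A stretch can match both, but no match shown here does. Only C was taken as the fourth letter of the ARE core, so looser forms were not counted. The Srxn1 AP-1 match nearer the start, TGAGTCA followed by gc, differs from the core at that letter alone. Of the 10 genes, 8 have a window; Gclc and Hmox1 are not in the table. The ARE core was found in 5 of the 8 (Nfe2l2, Gclm, Srxn1, Txnrd1 and G6pdx), and in 14.0% of all 27018 genes with a window. In Srxn1 it lay after the start. Txnrd1 has 3 windows, and 1 of them, at a start inside the annotated gene, holds it. The G6pdx start is also inside the annotated gene. In both, the match lies before that start but within the annotated gene. The AP-1 site was found in 1 of the 8, Srxn1, which holds it 2 times, and in 8.98% of all genes. The upstream matches are shown along the gene's strand so that their letters can be set beside the levels that follow. Capitals mark the match, which reads as its reverse complement in Gclm, Txnrd1 and G6pdx.
Nfe2l2, chr2:75704875-75704913, minus strand: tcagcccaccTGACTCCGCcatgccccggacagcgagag
Gclm, chr3:122245403-122245451, plus strand: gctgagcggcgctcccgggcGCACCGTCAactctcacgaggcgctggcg
Txnrd1, chr10:82859094-82859142, plus strand: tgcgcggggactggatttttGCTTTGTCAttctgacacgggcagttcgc
G6pdx, chrX:74428909-74428957, minus strand: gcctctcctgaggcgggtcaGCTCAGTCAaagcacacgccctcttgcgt
Srxn1, AP-1, chr2:152105402-152105448, plus strand: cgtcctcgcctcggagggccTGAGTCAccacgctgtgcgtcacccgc
Srxn1, AP-1, chr2:152105459-152105505, plus strand: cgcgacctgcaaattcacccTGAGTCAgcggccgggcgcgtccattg
The windows of Nqo1, Ephx1 and Slc7a11 hold neither run of letters, which says nothing about binding elsewhere.

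The 10 genes did not move as a block. The cholic acid diet raised Nqo1, Ephx1, Gclc and Srxn1, while the Fxr-/- Shp-/- livers had Hmox1 highest of all groups together with smaller rises of 5 others of the 9 genes tested throughout. Of those 9 genes, cholic acid raised 4 and lowered 0, where 4.77% of the 12577 genes tested were called (2.27% raised, 2.5% lowered). With the replicate number as a block it raised 3, Srxn1 no longer among them, of 480 genes called in all. The median change of the 9 was 0.73 on the log2 scale, beside 0.01 over all genes. In the knockout 6 were raised and 1 lowered, where 40.4% of 13473 genes were called (21% raised, 19.4% lowered), with a median of 0.65 beside -0.01. After partial hepatectomy 2 were raised and 0 lowered, where 30.7% of 13753 genes were called (16.4% raised, 14.3% lowered); 2 of 9 is near that background. On the high fat diet 2 were raised and 0 lowered, where 24% of 13892 genes were called (12.9% raised, 11.1% lowered), again near the background. With TCPOBOP 0 of the 9 were called by edgeR, as were 0% of 12785 genes; 751 genes (5.87%) had an unadjusted p under 0.05, and DESeq2's Wald test called 102 genes, Gclc among them.

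Whether the 2 groups of a comparison overlapped was counted for the same 9 genes. Under cholic acid 8 of the 9 genes were apart, all 8 higher, beside 31.2% of all genes (15.5% higher, 15.7% lower). In the knockout 6 were apart and higher and 1 lower, beside 53.4% (26.5% and 26.9%). After hepatectomy 2 were higher and 1 lower, beside 47% (24.4% and 22.6%). On the high fat diet 3 were higher and 1 lower, fewer than the 68.2% over all genes (35.1% and 33%). With TCPOBOP 1 was higher and 3 lower, beside 35.4% (16.8% and 18.7%).

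**Figure D1:**
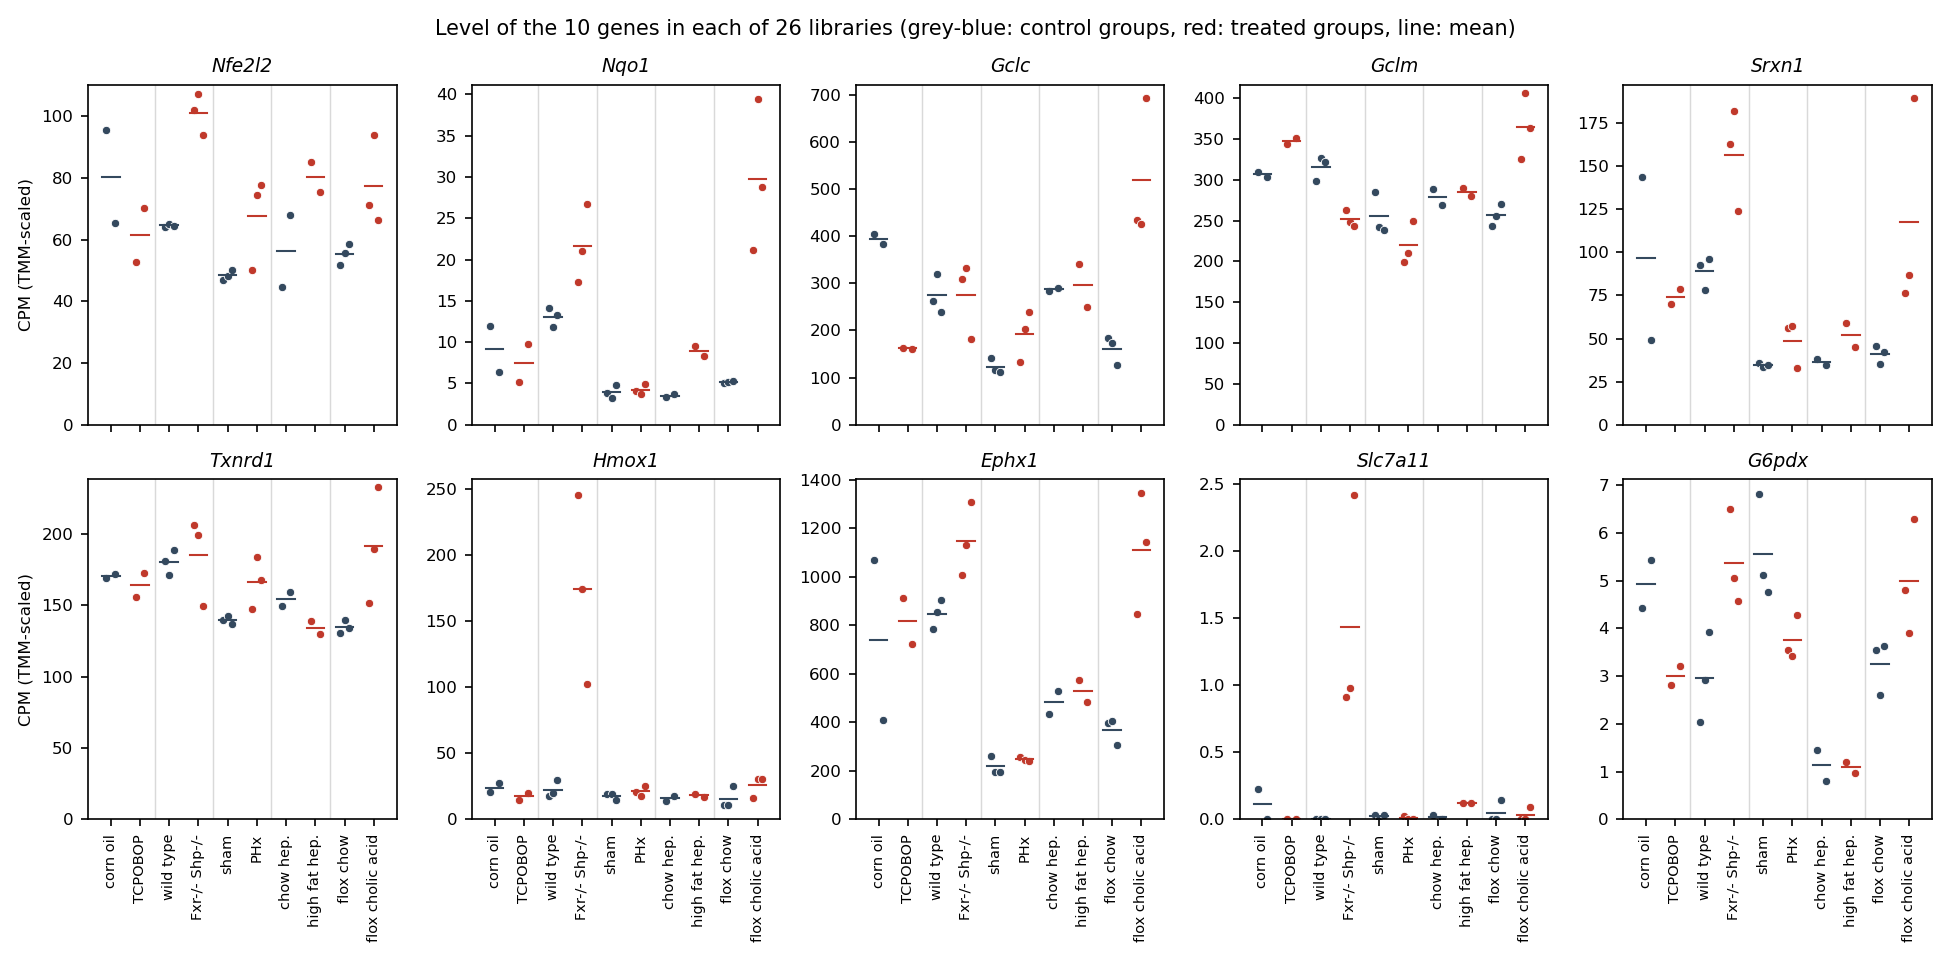
CPM (y axis, linear, TMM-scaled within each comparison) of the 10 genes in each library, by group (x axis); points are libraries and lines group means, with control groups in grey-blue and treated groups in red. Hmox1 lies at 103 to 246 CPM in the 3 Fxr-/- Shp-/- libraries and at or under 30.7 in every other library, while Nqo1 peaks at 21.2 to 39.4 under cholic acid.

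Compared between genes per kilobase of exon, Ephx1 ranked first in all 10 groups, from 112 CPM per kb in sham to 589 in the knockout. Gclc and Gclm followed in most groups, at 32.7 to 138 and 34.9 to 58.0 CPM per kb. G6pdx (0.353 to 1.81) and Slc7a11 (0 to 0.103) held ranks 9 and 10 in all 10 groups. Hmox1 was second in the knockout, at 99.6 CPM per kb, and at rank 7 or 8 in the other 9 groups.

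Nfe2l2, the factor itself (chromosome 2, 75675513 to 75704641 of GRCm38), was at 64.2, 65.2 and 64.5 CPM in wild type and at 102, 107 and 94.1 in the knockout. The groups did not overlap, and the gene rose by 0.65 ± 0.08 (adjusted p 0.000489), with the same call whichever of the 6 libraries was left out. Sham livers had 47.0, 48.1 and 50.3 CPM and regenerating livers 50.3, 74.5 and 77.8. PHx 1 lies at the level of the sham libraries and the other PHx libraries above them. The rise of 0.48 ± 0.16 was at the edge of the threshold (adjusted p 0.0496). It passed when PHx 1 was left out (0.65, adjusted p 0.0017) and missed when any of the other 5 libraries was (0.36 to 0.50, adjusted p 0.114 to 0.143). It also missed with DESeq2 size factors (0.0538), a mean count of at least 10 (0.0502) and a fit over all 26 libraries (0.0572). Under cholic acid it was at 71.4, 93.9 and 66.5 CPM against 51.7, 55.5 and 58.5, apart in every library but not called (0.48 ± 0.17, adjusted p 0.149). Hepatocytes had 44.8 and 68.0 CPM on chow and 85.3 and 75.5 on the high fat diet, a change of 0.51 ± 0.20 that was not called (adjusted p 0.109) unless chow hepatocytes 2 was left out (0.84, adjusted p 0.00528). Ordered by mean, the level ran from 48.5 ± 1.66 CPM (SD, n = 3) in sham to 101 ± 6.60 (SD, n = 3) in the knockout, and only flox chow and sham, last but one and last, did not overlap as neighbours.

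Nqo1, the quinone reductase commonly used as a readout of Nrf2 (chromosome 8, 107388225 to 107403206), was at 5.01, 5.22 and 5.33 CPM in flox chow and at 21.2, 39.4 and 28.8 under cholic acid. It rose by 2.52 ± 0.25, a fold of 5.73, with an adjusted p of 0.00256. Every cholic acid library was above every chow library. In high fat diet hepatocytes it was at 9.53 and 8.27 CPM against 3.35 and 3.67, a rise of 1.34 ± 0.15 (adjusted p 0.00524). In the knockout it was at 17.3, 21.0 and 26.7 CPM against 14.1, 11.8 and 13.3, a rise of 0.73 ± 0.16 (adjusted p 0.00776). None of these calls was lost with a library left out, and the groups did not overlap in any of them. Sham and PHx overlapped, at 3.26 to 4.76 and 3.68 to 4.89 CPM (0.10 ± 0.20, adjusted p 0.742). The library labelled corn oil 1 had 11.9 CPM, corn oil 2 had 6.41 and the TCPOBOP libraries 5.17 and 9.74.

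Ephx1, microsomal epoxide hydrolase (chromosome 1, 180976210 to 181020904), shared that pattern under bile acid feeding. It was at 397, 405 and 309 CPM in flox chow and at 848, 1344 and 1143 under cholic acid, with no overlap. The rise was 1.59 ± 0.22 (adjusted p 0.00982). In the knockout it was at 1007, 1130 and 1309 CPM against 783, 856 and 905, which again did not overlap, and the rise was 0.44 ± 0.12 (adjusted p 0.0219). That call was lost without wild type 1, wild type 2 or Fxr-/- Shp-/- 2 (0.38, 0.44 and 0.45, adjusted p 0.0946, 0.055 and 0.0508), and in a fit over all 26 libraries (0.42, adjusted p 0.196). It was not called after hepatectomy (197 to 262 CPM in sham, 240 to 259 in PHx, 0.18 ± 0.12, adjusted p 0.293, but 0.33 with an adjusted p of 0.0283 without sham 1). Nor was it called on the high fat diet (434 and 530 CPM on chow, 573 and 483 on the diet, 0.13 ± 0.14). In the TCPOBOP comparison the 2 corn oil libraries differed most, at 1067 in the one labelled corn oil 1 and 408 in corn oil 2, against 912 and 722 with TCPOBOP. The change was 0.15 ± 0.48 with both, 1.01 (adjusted p 0.013) without the library labelled corn oil 1 and -0.38 (adjusted p 0.387) without corn oil 2. Its exons overlap those of Gm36961 on the same strand, so its counts are uncertain to that extent.

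Glutamate-cysteine ligase makes the first and limiting step of glutathione synthesis, with Gclc as the catalytic and Gclm as the modifier subunit. Gclc (chromosome 9, 77754535 to 77794485) was at 185, 172 and 126 CPM in flox chow and at 435, 426 and 693 under cholic acid. It rose by 1.68 ± 0.25 (adjusted p 0.0113), with no overlap; without flox chow 2 the rise was 1.74 with an adjusted p of 0.0504. In the knockout its groups overlapped, 239 to 320 CPM in wild type against 182 to 333, and the change was 0.00 ± 0.22 (adjusted p 0.99), with a 95% interval of -0.48 to 0.49. After hepatectomy it was at 133, 202 and 239 CPM against 142, 116 and 112. PHx 1 lay within the sham range, and the rise was 0.64 ± 0.20 (adjusted p 0.0449). The call held without PHx 1 (0.84, adjusted p 0.00422) and was lost without any of the other 5 libraries (0.44 to 0.75, adjusted p 0.0521 to 0.153) and in a fit over all 26 libraries (0.63, adjusted p 0.0562). Hepatocytes had 284 and 291 CPM on chow and 341 and 250 on the high fat diet (0.04 ± 0.15).

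Gclc was also the gene of the 10 that stood furthest apart in the TCPOBOP comparison. The TCPOBOP libraries had 163 and 161 CPM, the library labelled corn oil 1 had 405 and corn oil 2 had 384. Both TCPOBOP libraries lay under both corn oil libraries, as for 18.7% of all genes. edgeR gave -1.28 ± 0.14 with an adjusted p of 0.345, and DESeq2's Wald test gave -1.27 with an adjusted p of 2.5e-09. The edgeR value is the smallest adjusted p of that comparison, but the adjustment can give the same value to many genes. It does not place Gclc first among all genes. Without the library labelled corn oil 1 edgeR gave -1.24 (adjusted p 0.000772), without corn oil 2 it gave -1.32 (adjusted p 0.0014), and without either TCPOBOP library the adjusted p was 1.00. With the Cyp2b10 level of the library labelled corn oil 1, the low Gclc level cannot be assigned to TCPOBOP from these libraries.

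Gclm (chromosome 3, 122245557 to 122270732) was the least variable of the pair. In the knockout it was at 263, 248 and 244 CPM against 299, 327 and 322, lower in every library. It fell by 0.33 on the log2 scale (SE 0.09, adjusted p 0.0172), the only member lowered in any comparison by this test. The call was lost without wild type 3 (-0.32, adjusted p 0.0567) or Fxr-/- Shp-/- 2 (-0.32, adjusted p 0.061). Under cholic acid it was at 325, 406 and 364 CPM against 243, 256 and 270, apart in every library but not called (0.51 ± 0.16, adjusted p 0.108; DESeq2's Wald test gave an adjusted p of 0.045 and a fit over all 26 libraries 0.00178). Hepatocytes differed little, at 288 and 270 CPM on chow and 290 and 281 on the high fat diet, with a 95% interval of -0.18 to 0.24. After hepatectomy the groups overlapped (238 to 285 and 199 to 250 CPM, -0.22 ± 0.11, adjusted p 0.186, but -0.32 and 0.0479 without PHx 3). Its exons overlap Gm6061 on the same strand and Gm17494 on the other, and the use of strand in counting is not given, so small changes are uncertain.

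Slc7a11 encodes the cystine importer that feeds glutathione synthesis. It had 0 counts in all 3 wild type libraries, and 0.915, 0.976 and 2.41 CPM in the knockout. Set against 3 counts in a wild type library (0.181 CPM before TMM scaling), the limit that 0 counts allow, the lowest knockout library was about 5-fold higher. Only the knockout level in that ratio is TMM-scaled, so it is approximate. edgeR called it raised (adjusted p 0.00253), as it did with any 1 of the 6 libraries left out. In the other 8 groups it was at 0 to 0.227 CPM, too low to test. The gene entered the test only because of the knockout libraries, so its call adds no support to the count of the other 9.

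**Figure D2:**
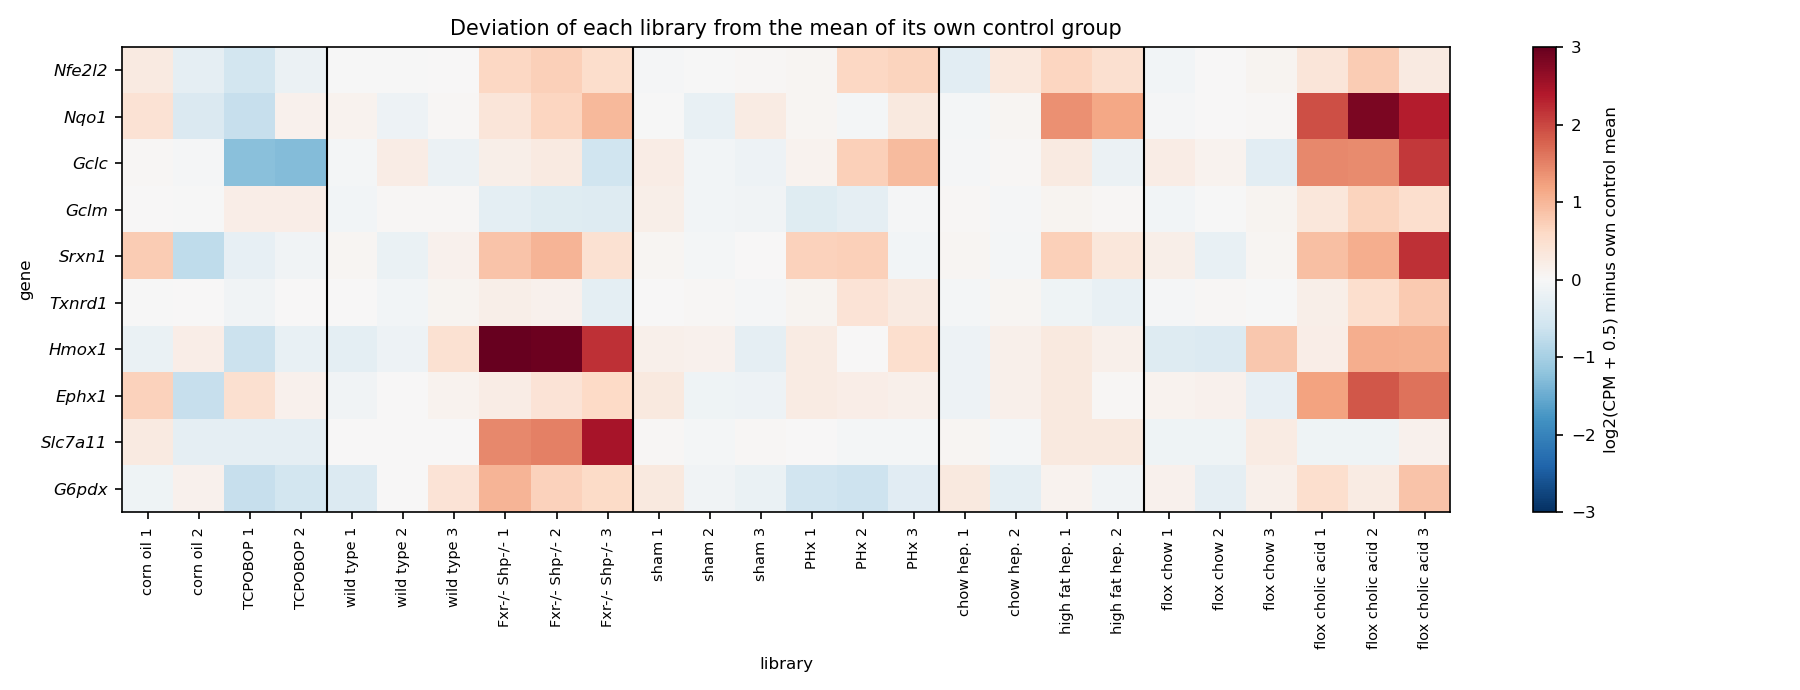
Deviation of each library (x axis) from the mean of its own control group, on a log2(CPM + 0.5) scale with 1 TMM scaling over all 26 libraries, for the 10 genes (y axis); red is above and blue below control, and the colour scale ends at 3. The 3 cholic acid libraries are above control for every gene but Slc7a11, and furthest for Nqo1, Gclc, Srxn1 and Ephx1. The 3 Fxr-/- Shp-/- libraries are furthest above control for Hmox1 and Slc7a11. They are also above it for Nfe2l2, Nqo1, Srxn1, Ephx1 and G6pdx, below it for Gclm, and on both sides for Gclc and Txnrd1.

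Sulfiredoxin, Srxn1 (chromosome 2, 152105516 to 152111376), repairs overoxidised peroxiredoxins. In the knockout it was at 163, 182 and 124 CPM against 92.8, 78.4 and 96.1. It rose by 0.81 ± 0.15 (adjusted p 0.00296), with no overlap and no call lost to a left-out library; a fit over all 26 libraries gave 0.79 with an adjusted p of 0.0632. Under cholic acid it was at 76.2, 86.8 and 190 CPM against 45.6, 35.2 and 42.1. All 3 cholic acid libraries were above chow, and cholic acid 3 was far above the other 2. The rise was 1.52 ± 0.34 (adjusted p 0.0443), and with the replicate number as a block it was 1.40 with an adjusted p of 0.0561. Without cholic acid 3 it was 1.00 (adjusted p 0.0557), and without flox chow 1, flox chow 2 or cholic acid 2 it was 1.61, 1.42 and 1.70 (adjusted p 0.0881, 0.149 and 0.0705). On the high fat diet it was at 58.8 and 45.3 CPM against 38.3 and 34.5, apart but close. That rise of 0.52 ± 0.14 (adjusted p 0.0458) held only without high fat diet 2 (0.69, adjusted p 0.0199) and was lost without chow 1, chow 2 or high fat diet 1 (0.59, 0.44 and 0.32, adjusted p 0.0505, 0.104 and 0.154) and in a fit over all 26 libraries (0.55, adjusted p 0.413). After hepatectomy it was at 56.2, 57.3 and 32.7 CPM against 35.9, 33.3 and 34.9. PHx 3 lay under sham, and the change was 0.49 ± 0.20 (adjusted p 0.0951), or 0.71 with an adjusted p of 0.000644 without PHx 3. With TCPOBOP it was at 70.2 and 78.5 CPM, between 144 in the library labelled corn oil 1 and 49.2 in corn oil 2, and its change was 0.60 (adjusted p 0.0325) without the first and -0.95 (adjusted p 0.00685) without the second.

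Txnrd1, the cytosolic thioredoxin reductase (chromosome 10, 82833951 to 82897712), was not called in any comparison. Its group means ran from 134 CPM in high fat diet hepatocytes to 191 under cholic acid. Cholic acid libraries were at 152, 189 and 233 CPM against 130, 139 and 134, apart in every library (0.51 ± 0.19, adjusted p 0.156, but 0.00934 when all 26 libraries shared 1 fit). PHx libraries were at 148, 184 and 168 CPM against 140, 142 and 137, also apart (0.25 ± 0.09, adjusted p 0.0754, or 0.34 and 0.0287 without PHx 1). In the knockout the groups overlapped, at 171 to 188 and 149 to 206 CPM, with a 95% interval of -0.26 to 0.33.

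Hmox1, the inducible heme oxygenase that breaks down heme (chromosome 8, 75093621 to 75100589), was at 17.8, 19.7 and 29.7 CPM in wild type and at 246, 175 and 103 in the knockout. The groups were far apart, and the knockout libraries also differed among themselves. The rise of 2.96 ± 0.32 was a fold of 7.78 (adjusted p 0.000194) and held with any library left out (2.63 to 3.24). Under cholic acid it was at 16.4, 30.7 and 30.6 CPM against 10.8, 10.7 and 25.2, and flox chow 3 made the groups overlap. The change was 0.73 ± 0.38 (adjusted p 0.297); without flox chow 3 it was 1.27 with an adjusted p of 0.0324. It was not called after hepatectomy (0.27 ± 0.16), on the high fat diet (0.19 ± 0.13) or with TCPOBOP (-0.45 ± 0.23), where levels were 14.1 to 27.2 CPM. The mean was 174 ± 71.4 CPM (SD, n = 3) in the knockout and 15.6 to 25.9 in the other 9 groups, whose neighbours in the order all overlapped.

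Hmox1 is also made by liver macrophages, so their markers are given beside it. Of 10 macrophage markers, 2 were raised in the knockout (Cd68 by 1.54, Vsig4 by 1.00) and 1 lowered (Marco, -1.70). Over all genes 21% were raised and 19.4% lowered, so these counts are near the background. The median change of the 10 markers was 0.61 on the log2 scale, beside -0.01 over all genes. Their summed level was 318 to 640 CPM in the knockout against 214 to 479 in wild type, with no marker at 0 in either group. Neutrophil markers summed to 10.6 to 20.6 CPM against 0.76 to 2.36, and in the knockout Ly6g and Mpo were at 0. S100a8 carried that sum (0.408 ± 0.439 to 14.6 ± 4.69 CPM, SD, n = 3), while S100a9 overlapped between the groups (0.817 ± 0.469 and 1.56 ± 0.348 CPM, SD, n = 3) and was not called (adjusted p 0.106). In these bulk samples, more cells of a type and more RNA per cell cannot be told apart. Flox chow 3, the chow library with high Hmox1, had a macrophage sum of 318 CPM, the highest of its group (lowest 116), and a neutrophil sum of 13.9 against 0.2 at the lowest. The part of these cells in the Hmox1 results was not tested.

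G6pdx, the first enzyme of the pentose phosphate pathway and a source of NADPH (chromosome X, 74409483 to 74429194), was at 6.49, 5.06 and 4.57 CPM in the knockout against 2.04, 2.91 and 3.93. It rose by 0.87 ± 0.26 (adjusted p 0.0273), with no overlap. The call was lost without wild type 1 (0.65, adjusted p 0.0909), wild type 2 (0.85, 0.074), Fxr-/- Shp-/- 1 (0.71, 0.101) or Fxr-/- Shp-/- 2 (0.91, 0.0578). After hepatectomy the sign was the other way, 3.56, 3.42 and 4.29 CPM against 6.83, 5.11 and 4.76. The groups were apart, but -0.57 ± 0.19 was not called (adjusted p 0.0541; DESeq2's Wald test gave -0.57 with 0.0371, and edgeR -0.68 with 0.0426 without PHx 3). Cholic acid libraries had 4.81, 3.91 and 6.30 CPM against 3.56, 2.61 and 3.63 (0.62 ± 0.29, adjusted p 0.243). Its exons overlap Ikbkg on the other strand, which adds to the uncertainty of these low counts. Hepatocytes had the lowest levels, 1.46 and 0.804 CPM on chow and 1.20 and 0.98 on the high fat diet, and these overlapped (-0.05 ± 0.34, adjusted p 0.929). The next group up, wild type whole liver, did not overlap with them.

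The remaining members in the TCPOBOP comparison were not called and are given as levels. Nfe2l2 was at 52.7 and 70.2 CPM with TCPOBOP, at 65.4 in corn oil 2 and at 95.5 in corn oil 1 (as labelled), so the groups overlapped. Gclm was the 1 member higher in both TCPOBOP libraries, at 344 and 351 CPM against 310 and 303 (0.18 ± 0.14, adjusted p 0.943). Hmox1 (14.8 and 20.3 CPM against 20.5 and 27.2) and G6pdx (2.82 and 3.20 against 4.43 and 5.44) were lower in both, as Gclc was. Txnrd1 overlapped, at 156 and 173 CPM with TCPOBOP against 169 and 172.

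**Figure D3:**
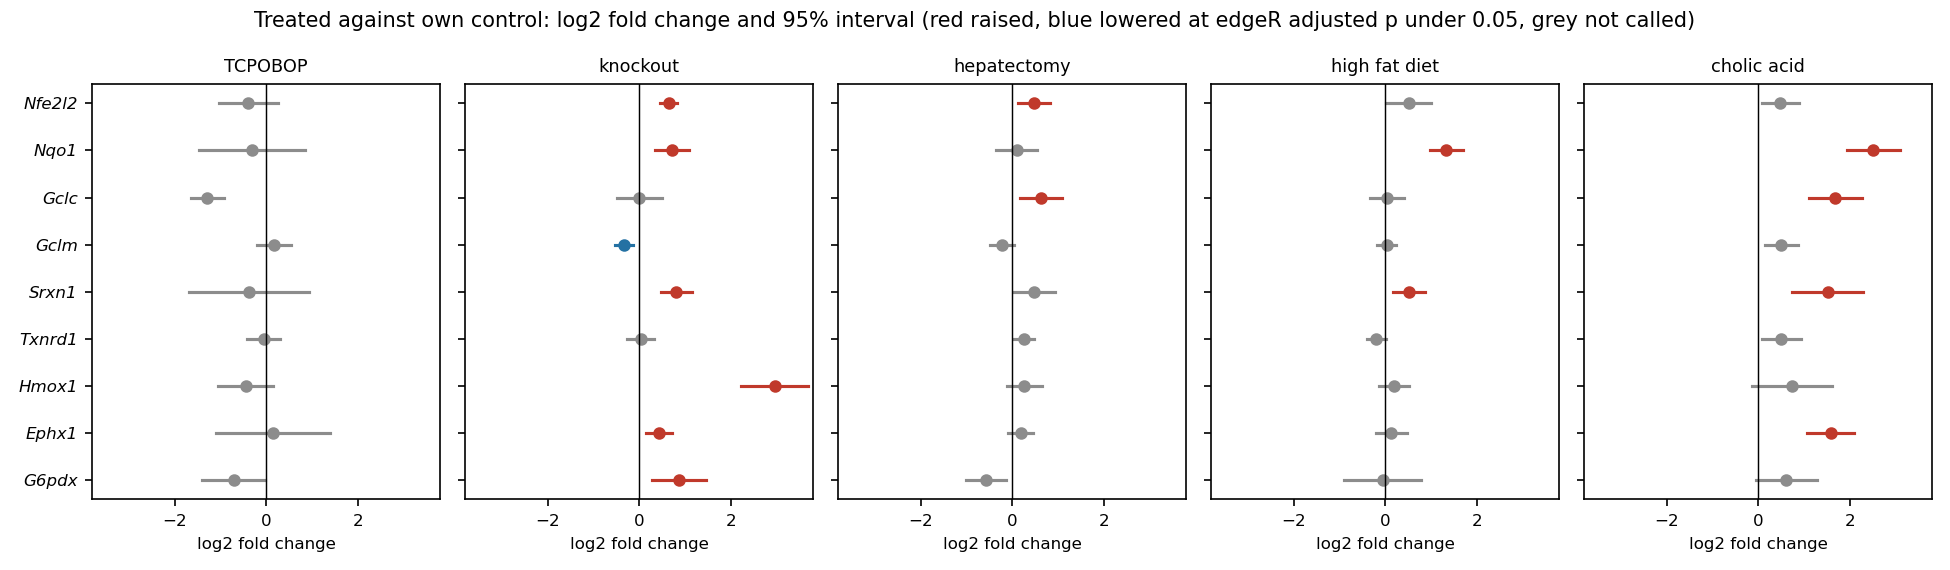
Log2 fold change (x axis) of each treated group over its own control for the 9 genes tested in every comparison, with 95% intervals; red was raised and blue lowered at an edgeR adjusted p under 0.05, and grey was not called. Hmox1 in the knockout (2.96) and Nqo1 under cholic acid (2.52) lie furthest to the right, and Gclm in the knockout is the 1 gene lowered.

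Whether the knockout and bile acid feeding acted differently was tested as a difference between their log2 fold changes in 1 fit of all 12 libraries, where 13.9% of 13935 genes differed (7.18% larger in the knockout, 6.74% smaller). Of the 9 genes tested throughout 5 differed. Nqo1, Gclc, Gclm and Ephx1 had the smaller change in the knockout, by -1.79 ± 0.31 (adjusted p 0.00257), -1.67 ± 0.36 (0.0086), -0.83 ± 0.17 (0.00676) and -1.14 ± 0.26 (0.0108). Hmox1 had the larger, by 2.24 ± 0.56 (0.0188), and its call was lost without wild type 1 (2.09, adjusted p 0.0522) or wild type 2 (2.16, 0.0502). The other 4 of these 5 calls held with any library left out. For Nfe2l2 the difference was 0.17 (95% interval -0.25 to 0.59) and for Srxn1 -0.70 (-1.58 to 0.17). The 2 experiments also differ in age, fasting and the floxed alleles, so these cannot be told apart from the treatments.

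Between hepatectomy and cholic acid 4 of the 9 differed, where 13% of 13985 genes did (8.01% larger after hepatectomy, 5.01% smaller). The change after hepatectomy was smaller for Nqo1 by -2.42 ± 0.32 (adjusted p 0.000725) and for Ephx1 by -1.40 ± 0.26 (0.00476), both with any library left out. Gclc was not called (-1.04, adjusted p 0.0643), but passed with DESeq2's Wald test (0.0254), no filter (0.0304), a fit over all 26 libraries (0.0314) and without PHx 3 (-1.23, 0.0469). Gclm differed by -0.72 ± 0.19 (0.0268), which with the replicate block became -0.72 with an adjusted p of 0.0661. G6pdx differed by -1.18 ± 0.33 (0.0348). The Gclm call was lost without sham 1, sham 2, PHx 1, PHx 2, flox chow 2 or cholic acid 2 (-0.76 to -0.63, adjusted p 0.051 to 0.0673). The G6pdx call was lost without sham 1, sham 2, PHx 1, PHx 2, flox chow 2, cholic acid 1 or cholic acid 3 (-1.25 to -0.99, adjusted p 0.0579 to 0.0828). The strain, age, feeding and floxed alleles differ between these experiments and cannot be told apart from the treatments.

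Between the knockout and hepatectomy 2 of the 9 differed, below the background, where 31.5% of 14755 genes did (15.4% larger in the knockout, 16% smaller). Hmox1 differed by 2.71 ± 0.39 (0.00022) and G6pdx by 1.45 ± 0.33 (0.00537), and both held with any library left out. Slc7a11, tested only because of its knockout libraries and not counted among the 9, had an adjusted p of 0.0258 on counts of 0 or near 0 in 3 of the 4 groups, and was not called without sham 1 (0.0925) or sham 3 (0.0953). Strain and age differ between these 2 experiments too and cannot be told apart from the treatments.

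**Figure D4:**
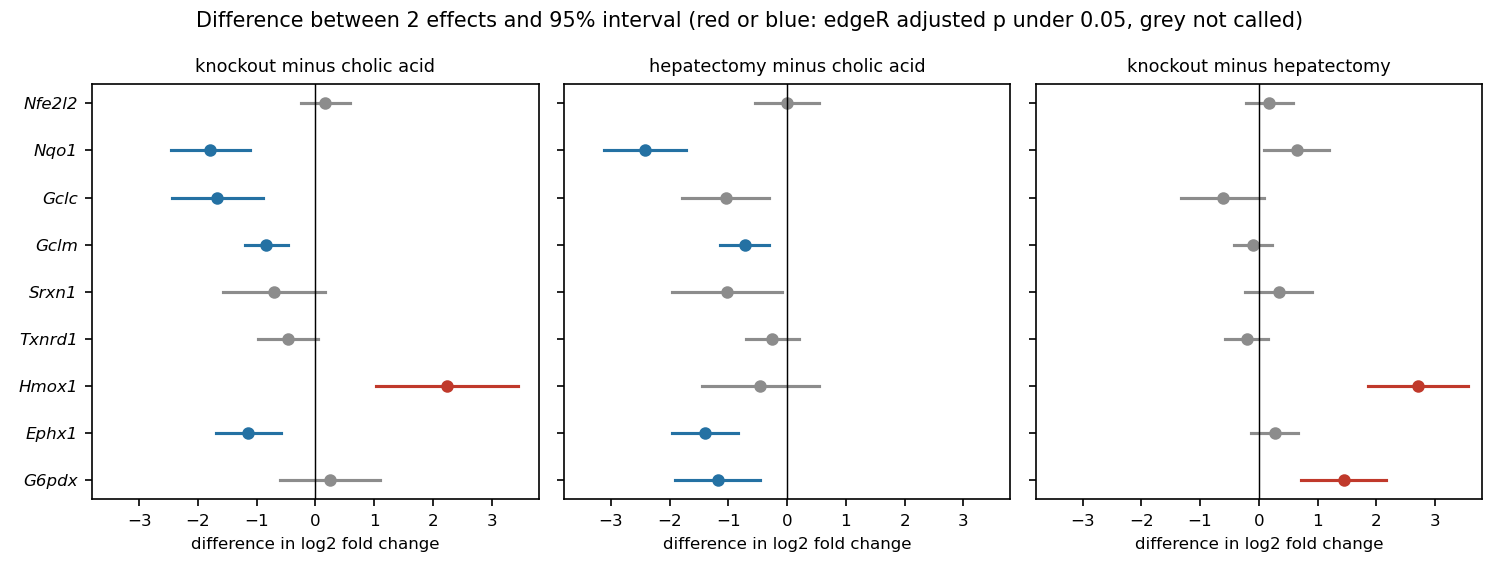
Difference between the log2 fold changes of 2 experiments (x axis), with 95% intervals, for 9 genes; red or blue passed an edgeR adjusted p of 0.05 and grey did not. Against cholic acid, Nqo1 and Ephx1 lie to the left for both the knockout and hepatectomy, while Hmox1 lies to the right for the knockout.

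Other genes of the Nrf2 pathway were followed in lists, whose counts are to be read against the shares of all genes called that were given above. The lists were also chosen with earlier results of these data known. Setting their counts and medians beside those of all genes is therefore description, not independent support. Of 24 further detoxification targets, cholic acid raised 12 and lowered 0, with a median of 1.25 beside 0.01 over all genes. The aldo-keto reductase Akr1b7 went from 0.608 ± 0.475 to 71.3 ± 59.1 CPM (SD, n = 3), a rise of 6.86. The glutathione transferases Gstm3 and Gsta1 rose by 6.22 (73.0 ± 20.7 to 5441 ± 2165 CPM) and 5.14 (5.82 ± 2.01 to 206 ± 92.5 CPM). With the replicate block 9 were raised. Without flox chow 3 there were 16, and without flox chow 1, flox chow 2 or cholic acid 2 there were 7, 6 and 7, with 0 lowered in each. In the knockout 16 of the 24 were raised and 3 lowered, beside 21% and 19.4% over all genes, with a median of 0.93. Gsta1 rose by 6.74, Gstm3 by 4.18 and the efflux pump Abcc4 by 4.79, while Gstp1 (-2.11), Cbr1 (-1.39) and Abcc2 (-0.56) fell. Cyp2b10, the CAR target named above, was also higher in every knockout library, at 417, 286 and 410 CPM against 26.9, 62.7 and 62.5. Under cholic acid it was at 26.9, 336 and 106 CPM against 27.7, 45.7 and 1.1375 in flox chow, and the groups overlapped. The part of CAR in the changes of these targets and of the 10 genes was not tested.

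After hepatectomy 6 of 23 tested detoxification targets were raised and 2 lowered, near the 16.4% raised and 14.3% lowered over all genes. Gsta1, at 0.448 ± 0.0937 CPM in sham and 7.87 ± 6.18 in PHx, rose by 4.12, Ptgr1 by 1.70 and Gsta2 by 1.49, while Abcc3 (-0.89) and Cbr1 (-0.67) fell. On the high fat diet 6 of 24 were raised, led by Gsta1 (3.45), Gsta2 (1.41) and Mgst3 (1.33), and 5 lowered, beside 12.9% and 11.1% over all genes; without high fat diet 1 or high fat diet 2 it was 3 and 3. Of those, Gstp2 (-3.67), Gstp1 (-1.88) and Osgin1 (-0.87) fell most among genes above the level set for naming. Gsta, Gstm and Gstp genes have near-identical copies, so reads may be split or dropped between them and single values are uncertain. With TCPOBOP 0 of the 24 were called by edgeR, which called 0 genes in all. DESeq2's Wald test called 1 of the 24, and 102 genes in all. The edgeR calls in this list depended on which corn oil library was left out, and no direction is drawn from them.

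**Figure D5:**
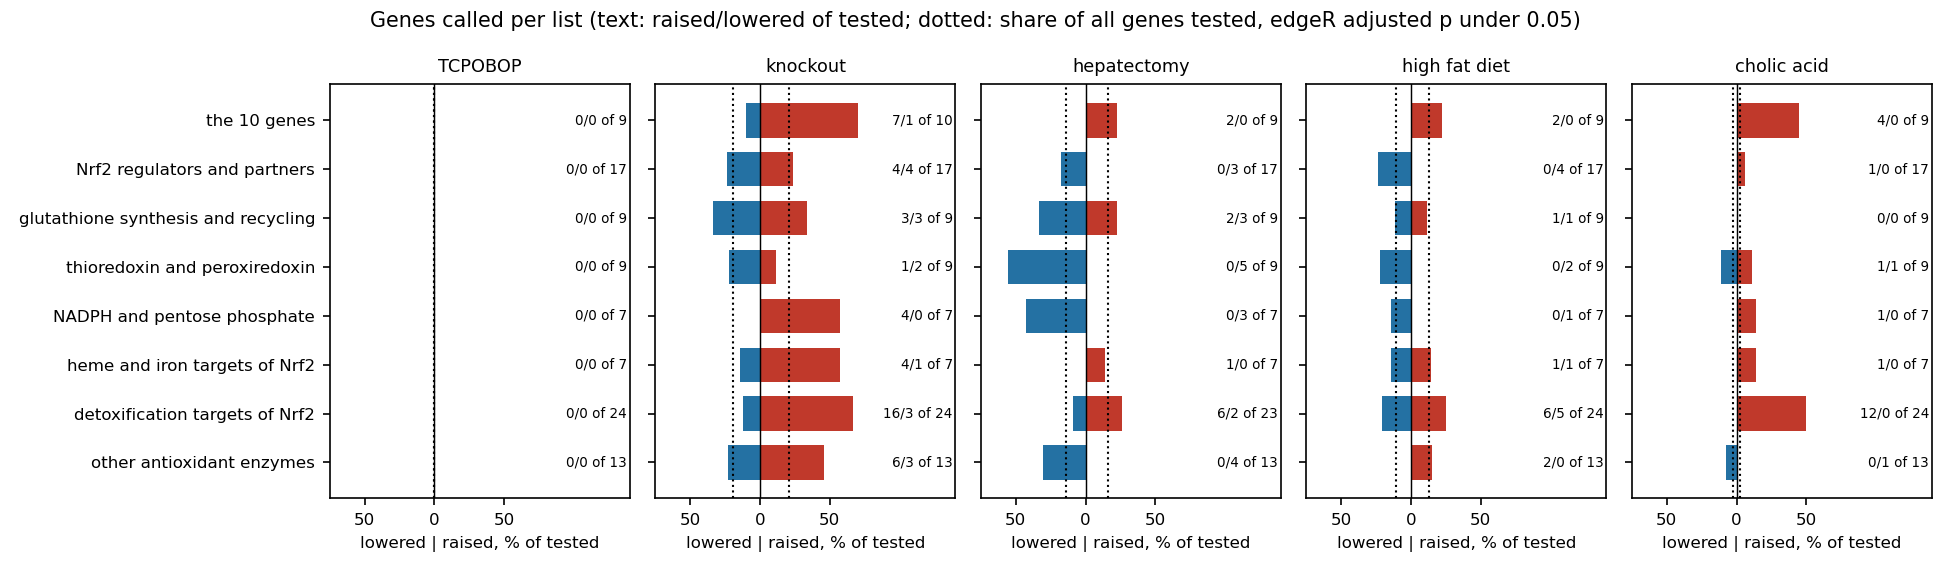
Share of each list's tested genes that was raised (red, to the right) or lowered (blue, to the left), in percent (x axis), for the 10 genes and 7 pathway lists (y axis) in the 5 comparisons; the text gives raised/lowered of tested and dotted lines the shares over all genes tested. Detoxification targets stand at 12/0 of 24 under cholic acid and 16/3 of 24 in the knockout. The knockout bar of the 10 genes (7/1 of 10) includes Slc7a11, which was tested only because of the knockout libraries. Without it the count is 6/1 of 9. The 10 genes and the lists were chosen with earlier results of these data known.

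Of 7 NADPH and pentose phosphate genes other than G6pdx, the knockout raised 4 and lowered 0 (21% and 19.4% over all genes), among them Pgd, the third enzyme of the oxidative branch (1.68, 24.7 ± 2.57 to 79.1 ± 9.79 CPM), Rpia (1.37) and Tkt (0.87). Hepatectomy lowered 3 and raised 0, with malic enzyme Me1 at -1.58, Idh1 at -0.49 and Tkt at -0.41. Cholic acid raised 1, Tkt (0.77), which was not called with the block, and the high fat diet lowered 1, Idh1 (-0.36). The cholic acid count was 1 raised and 1 lowered without flox chow 3 and 0 with any of its other 5 libraries left out. The high fat diet count was 0 without high fat diet 1 or 2, and 1 raised and 0 lowered without chow 2. Of 7 heme and iron genes the knockout raised 4 and lowered 1 (21% and 19.4% over all genes), with a median of 0.50. There the ferritin chains Fth1 (0.74) and Ftl1 (0.52) and the heme transporter Slc48a1 (0.65) rose, and Fech, which completes heme synthesis, fell (-0.57). Under cholic acid the median was 0.59. In that comparison 6 of the 7 were higher in every library, beside 15.5% of all genes (15.7% lower). Cholic acid raised 1, the iron exporter Slc40a1 (1.19); there were 2 with the block, 4 without flox chow 3, and 0 without flox chow 1, flox chow 2, cholic acid 1 or cholic acid 2. Hepatectomy raised 1 (Blvra, 0.40), and the high fat diet raised Fth1 (0.49) and lowered Blvrb (-0.44). The first count was 0 without sham 2, sham 3 or PHx 2, and the high fat diet count was 0 without chow 2 or high fat diet 1.

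Of 9 tested genes of glutathione synthesis and recycling other than Gclc, Gclm and Slc7a11, the knockout raised 3 (Gpx4 1.20, Slc3a2 0.67, Gss 0.49) and lowered 3 (Chac2 -1.45, Slc6a9 -0.75, Oplah -0.67). Slc3a2 is the partner chain of Slc7a11 in the cystine importer. Hepatectomy raised 2, glutathione synthetase Gss (0.69) and glutathione reductase Gsr (0.46), and lowered 3, Slc6a9 (-1.14) and Oplah (-0.61) among them. The high fat diet raised 1 (Gpx4, 0.39) and lowered 1 (Slc6a9, -0.65), of which 0 were called without high fat diet 1. Under cholic acid 0 of the 9 were called by edgeR, while DESeq2's Wald test called 1, as did edgeR without flox chow 3 or cholic acid 1. Of 9 thioredoxin and peroxiredoxin genes the knockout raised 1 (Prdx3, 1.03) and lowered 2, hepatectomy lowered 5 and raised 0 (Txnrd3 -0.92, Txnip -0.64, Txnrd2 -0.56), and the high fat diet lowered 2 (Txnip -1.28, Prdx5 -0.34). Cholic acid raised Sesn2 (0.97) and lowered Prdx5 (-0.76), and 0 of the 9 were called with the block or with any of the 6 libraries but flox chow 3 left out. The 5 after hepatectomy were 3 without sham 1, sham 2, PHx 1 or PHx 2, and the 2 on the high fat diet were 1 with any of its 4 libraries left out.

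Of 17 regulators and partners of Nrf2 the knockout raised 4 and lowered 4, near the background. The small Maf partners moved apart there: Maff (0.93) and Mafk (0.91) rose and Mafg fell (-0.94), as did the repressor Bach1 (-0.54), which competes for AREs at Hmox1. Under cholic acid Mafg rose (0.83, 48.5 ± 10.6 to 86.5 ± 3.75 CPM) and was the only one of the 17 called; 1 was raised with the block and without flox chow 3, and 0 with any of the other 5 libraries left out. Maff fell after hepatectomy (-1.63) and on the high fat diet (-1.33). In both, no regulator was raised, and 3 (Maff, Sqstm1 -0.39, Cul3 -0.32) and 4 (with Gsk3b -0.60 and Bach1 -0.44) were lowered. The first count was 1 without sham 3, and the second was 2 without chow 2 or high fat diet 1. Of 13 other antioxidant enzymes the knockout raised 6, with Gpx3 (2.21), Mt2 (2.19) and Mt1 (1.98) at the head, and lowered 3 (Prdx4 -0.75, Cat -0.62, Gpx1 -0.40), or 3 and 2 without wild type 1 or Fxr-/- Shp-/- 1, where 40.4% of all genes were called (21% raised, 19.4% lowered). Hepatectomy lowered 4 and raised 0, where 30.7% of all genes were called, among them catalase (Cat, -0.82), Sod2 (-0.59) and Msrb1 (-0.49). The high fat diet raised 2 (Sod3 2.60, Msra 0.43), or 1 without chow 1 or high fat diet 1, and cholic acid lowered 1 (Msrb1, -1.02), and 0 were called with the block or with any of the 6 libraries but flox chow 3 left out.

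Markers of other cells moved with some of these lists. Over all genes, 21% were raised and 19.4% lowered in the knockout, and 16.4% and 14.3% after hepatectomy. The high fat diet raised 12.9% and lowered 11.1%, and cholic acid 2.27% and 2.5%. All 6 stellate markers were raised in the knockout, where they summed to 405 to 453 CPM against 159 to 277, and all 6 in the high fat diet hepatocytes (24.8 to 29.1 against 6.81 to 10.1). Of 5 bile duct markers 4 were raised in the knockout, summing to 57.4 to 135 CPM against 27.3 to 38.0. In the hepatocytes 6 of 9 tested macrophage markers and all 6 endothelial markers were raised by the high fat diet. The macrophage sum was 72.7 to 82.8 CPM there against 45.0 to 46.0 on chow, below every whole liver group. Of 6 hepatocyte markers 0 were raised in any comparison. The knockout lowered 3 (Tat -1.30, Cyp2e1 -0.65, Apoa1 -0.43), hepatectomy 4 (Tat -1.26, Cyp2e1 -0.82, Alb -0.37, Apoa1 -0.29), the high fat diet 2 (Apoa1 -0.66, Cyp2e1 -0.49) and cholic acid 1 (Cyp2e1 -1.26). Under cholic acid 1 of 10 macrophage markers was raised (Csf1r), with a sum of 268 to 443 CPM against 116 to 318. The median change of the 10 was 0.87 on the log2 scale, beside 0.01 over all genes. The part of these cells in the values above was not tested.

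The gene most like Nqo1 over the 26 libraries, each taken as its deviation from its own control mean, was the drug efflux pump Abcb1a (Pearson's r 0.93 among 11025 genes). Ap1ar (0.91), Defb1 (0.90), Anxa6 (0.87) and Pip5k1c (0.87) followed. Among the 10 genes Ephx1 was most like it (0.83, rank 19), then Srxn1 (0.77) and Gclc (0.68), while Hmox1 was far down (0.34, rank 2093). Without the TCPOBOP comparison and flox chow 3 (21 libraries), a choice made after seeing the data, Abcb1a was at 0.97 and Ephx1 at 0.90, ranks 1 and 9. Libraries of a group share their treatment, so these values describe the groups more than the libraries.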

How the data were processed

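What the authors deposited is a single count table with a column for each of the 26 libraries, 47643 genes and 5 summary lines for unassigned reads; the values are whole numbers and were used as raw counts. Per the submitters' processing notes the tools were bcl2fastq 2.17.1.14, Trimmomatic, STAR 2.4.2a, Picard 1.119 and HTSeq, on GRCm38/mm10. Per the labels' protocols the libraries were stranded mRNA libraries; the strand setting of the counting is not given in the sources used here. The summary lines (reads in no gene, ambiguous or not uniquely aligned) stayed out of library sizes. Symbols came from a gene name table, which matched 47224 identifiers.

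Counts were tested with edgeR 4.0.16 (R 4.3.3) by the quasi-likelihood F test after filterByExpr (minimum count 10) and TMM scaling, over the libraries of each comparison, with Benjamini-Hochberg adjustment over all genes tested; SE is the log2 fold change divided by the root of F. Differences between effects were contrasts of 4 groups. The fits were tested on simulated counts. Alternatives were DESeq2 1.42.0 (Wald test, size factors), other filters (no filter, or a mean count of at least 10), 1 fit of all 26 libraries, the replicate number as a block, and each library left out. The 10 genes and the lists were chosen with earlier results of these data known. Named genes are the 10, up to 3 called genes per list and direction with the largest change at an average log2 CPM of at least 1, the 5 genes most like Nqo1, and Nr1h4, Nr0b2 and Cyp2b10.

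Same-numbered libraries of the cholic acid comparison deviated together (r = 0.13, 0.15 and 0.10 for numbers 1, 2 and 3), so the numbers may pair them, from the data alone. TCPOBOP (r = 0.10) and the high fat diet (r = 0.09) gave similar values. With 2 libraries per group these are a single r each and cannot settle it. The main values come from fits without the block, and fits with it are given as alternatives. No 2 libraries agreed within sampling noise. The floor of 3 counts covers counting error only.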

Additional observations from a re-analysis of the deposited data

Results flagged for a closer look

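Tests of the difference between 2 experiments' effects passed for 11 pairs of gene and contrast among the 9 genes tested throughout (edgeR, adjusted p under 0.05), and for Slc7a11 in 1 contrast. The change in the knockout differed from that under cholic acid by -1.79 for Nqo1, 2.24 for Hmox1, -0.83 for Gclm, -1.67 for Gclc and -1.14 for Ephx1 on the log2 scale. The change after hepatectomy differed from that under cholic acid by -2.42 for Nqo1, -0.72 for Gclm, -1.18 for G6pdx and -1.40 for Ephx1. The change in the knockout differed from that after hepatectomy by 2.71 for Hmox1 and 1.45 for G6pdx. For Slc7a11, which entered the test only through its knockout libraries, the same contrast gave a model estimate of 9.11 on counts of 0 or near 0, which gives no size and is no support for the others.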

How the results depend on the processing

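The counts of called genes among the 10, Slc7a11 included where it was tested, moved by more than 1.5 times as follows. DESeq2's Wald test called 1 (Gclc) with TCPOBOP, against 0. After hepatectomy, against 2, there was 1 with DESeq2 size factors and 1 with a mean count of at least 10. There were 0 in the fit of all 26 libraries and 0 with the replicate block. Same-numbered sham and PHx libraries did not deviate together (r = -0.075, 0.072 and -0.0014). This does not settle whether the numbers pair them. On the high fat diet, against 2, the fit of all 26 libraries called 1. With 1 library left out the counts were 0 to 3 for TCPOBOP, 5 to 8 for the knockout, 0 to 3 for hepatectomy, 1 to 2 for the high fat diet, 2 to 5 for cholic acid, 4 to 5 for the knockout minus cholic acid, 2 to 5 for hepatectomy minus cholic acid and 2 to 4 for the knockout minus hepatectomy. In the knockout comparison Slc7a11 was called in all 6 of these fits, so it adds 1 to each count there and is no support for the others. The lowest counts came without Fxr-/- Shp-/- 2 (5) and flox chow 2 (2) and, for hepatectomy minus cholic acid (2), without sham 1, sham 2, PHx 1, PHx 2 or flox chow 2. Where 1 library is left of a group of 2, it is assumed to vary like the other group.

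Signs turned only for changes that were not called, apart from Srxn1 and Ephx1 with TCPOBOP, which are called without 1 corn oil library. Gclc in the knockout was -0.014 in the fit of all 26 libraries and -0.033 with the block, and Nfe2l2 in hepatectomy minus cholic acid was 0.0019 with a mean count of at least 10. With 1 library left out, the ranges that crossed 0 were, for TCPOBOP, Nqo1 -0.80 to 0.22, Txnrd1 -0.11 to 0.028, Srxn1 -0.95 to 0.60 and Ephx1 -0.38 to 1.01. In the knockout they were Txnrd1 -0.049 to 0.18 and Gclc -0.15 to 0.24, and after hepatectomy Nqo1 -0.025 to 0.25. On the high fat diet they were Gclm -0.021 to 0.075, G6pdx -0.43 to 0.43, Gclc -0.20 to 0.24 and Ephx1 -0.0089 to 0.28. Among differences they were Nfe2l2 in hepatectomy minus cholic acid, -0.11 to 0.18, and Gclm in the knockout minus hepatectomy, -0.19 to 0.0039. The cause was not tested.

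Over all genes, TCPOBOP gave 0 calls, 102 with DESeq2's Wald test, 9 in the fit of all 26 libraries, and, leaving out 1 control library, 1233 (the one labelled corn oil 1) and 413 (corn oil 2). Cholic acid gave 600, 1386 with the Wald test, 955 with no filter, 3132 in the fit of all 26, 1345 without flox chow 3 and 189 to 298 without any other library. The high fat diet gave 3333, 1735 in the fit of all 26, and 1141 and 1793 without high fat diet 1 and 2. The knockout gave 5441, and 3969 to 6024 with 1 library left out. Hepatectomy gave 4225, and 2554 and 2575 without sham 2 and sham 3. In the fit of all 26 the differences gave 2991 for the knockout minus cholic acid, against 1939, and 2749 for hepatectomy minus cholic acid, against 1820, which became 1089 and 1171 without sham 2 and sham 3.

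With the replicate block, G6pdx in the knockout was 0.88 with an edgeR adjusted p of 0.0527. Among the comparisons other than cholic acid, the block changed no other call than this and those of Nfe2l2 and Gclc after hepatectomy (0.45 and 0.61, edgeR adjusted p 0.0504 and 0.102). Groups of 2 or 3 libraries and counts near 0 (Slc7a11) limit what can be called.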
